A study of Mus musculus with 4 samples.

Results

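The genes described here encode the giant protocadherins Fat1 and Fat4, their Dachsous partners Dchs1 and Dchs2, and 3 gene pairs of the core planar polarity pathway, Prickle1 and Prickle2, Vangl1 and Vangl2, and Celsr1 and Celsr2. These 10 genes were chosen by symbol, with earlier results of the same libraries known, out of 52636 gene identifiers in the files. Each symbol matched 1 identifier, and all 10 genes were among the 18172 that passed the filter on low counts. The choice drew on their levels in CPM (read counts scaled to library size) in control and Brg1-cKO libraries, so their differences between the groups are given as a description, without a test. The series holds RNA-seq of sorted mouse kidney cells, with 2 control and 2 Brg1-cKO libraries made from 3000 cells each. Brg1 is the protein of Smarca4, an ATPase of the SWI/SNF chromatin remodelling complexes, and cKO by usual usage means a conditional knockout. The deleting allele, the genotype of the controls, the sorting marker and the age and strain of the mice are not given in the sources used here. Since no label ties the replicates to separate mice, the spread between them may be technical.

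Fat and Dachsous proteins are very large cadherins that bind each other across the boundary between neighbouring cells. In the embryonic kidney, Fat4 and Dchs1 are known for a signal between stromal cells and nephron progenitors that bears on whether progenitors renew or differentiate. The core planar polarity pathway orients cells within a sheet: Celsr cadherins bridge neighbouring cells, while Vangl membrane proteins and cytoplasmic Prickle proteins gather on 1 side of each cell. Both pathways are known for their part in the elongation and diameter of kidney tubules. Fat signalling also feeds into the Hippo pathway, whose kinases keep the coactivators Yap1 and Wwtr1 out of the nucleus.

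The counts on genes came to 35411905 and 37999342 in the control libraries and to 14645665 and 10922272 in the Brg1-cKO libraries. Smarca4, the gene that the group label names as targeted, stood at 894 and 933 CPM in control and at 757 and 688 CPM in Brg1-cKO, so its transcript was still abundant. Xist was at 243 and 216 CPM in control and at 832 and 1200 CPM in Brg1-cKO, whereas the Y-linked Ddx3y was at 75.6 and 78.4 CPM in control and at 1.04 and 3.25 CPM in Brg1-cKO. Both controls held Xist as well as Ddx3y, so they may hold cells of both sexes. The sex make-up of the libraries and genotype therefore cannot be told apart. The Brg1-cKO libraries also differed more from each other: the median absolute log2 ratio between the libraries of a group was 0.84 over 13555 tested genes in Brg1-cKO and 0.17 over 17930 in control. In edgeR's quasi-likelihood test, 0 of 18172 genes (0%) passed an adjusted p of 0.05, while 988 higher and 2340 lower genes had an unadjusted p under 0.05. On the same genes DESeq2 called 907 (4.99%) and limma-voom 327.

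Marker genes of several cell types, listed from textbook knowledge but with earlier results of these data known, were read in the libraries. The summed level of 10 stromal markers ran from 2771 to 2803 CPM in control and from 1354 to 1376 CPM in Brg1-cKO, and 9 of them lay below both controls in both Brg1-cKO libraries. Most of that sum is Col1a1 and Col3a1. Over all tested genes, 34.5% lay below both controls in both Brg1-cKO libraries and 17.5% above, the shares to set beside each marker count here. Of 9 early nephron markers 8 lay above both controls, with a sum of 1395 to 1407 CPM in control and 2319 to 2443 CPM in Brg1-cKO, and of 8 podocyte markers 7 did, with a sum of 593 to 601 and of 2510 to 2695 CPM. Nephron progenitor markers were mixed: of 8, 3 lay above both controls (Pax2, Sall1 and Osr1), 2 below (Six2 and Meox1) and 3 overlapped. Their sum of 1570 to 1607 CPM in control and 1703 to 1763 CPM in Brg1-cKO is mostly Pax2 and Sall1. Of 9 tested ureteric bud markers 7 lay below both controls, and Calb1, Wnt9b and Wnt7b among them had 0 counts in either Brg1-cKO library. The other 2 overlapped, Gata3 at 34.9 and 18.0 CPM in Brg1-cKO and Hoxb7 at 97.7 and 26.9 CPM, against 23.4 and 29.2 CPM for Hoxb7 in control. All 10 summed to 221 to 229 CPM in control and 76.4 to 148 CPM in Brg1-cKO, and Hoxb7 makes up most of the higher Brg1-cKO sum. Endothelial markers, 7 of 8 below both controls, summed to 672 to 677 CPM in control and 220 to 381 CPM in Brg1-cKO. Immune markers, 6 of 8 below, summed to 120 to 121 and 45.1 to 57.3 CPM. Whether these shifts had a part in the differences described next was not tested. In such bulk samples, fewer cells of a type and less RNA per cell cannot be told apart.

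The start regions of 3 genes are shown first, because genes that differed in opposite directions between the groups can be set beside the CpG content of their starts. RefSeq windows on GRCm38.p6, the assembly also called mm10, were found for 7 of the 10 genes. The 250 bases before the annotated start are given 5′ to 3′ on the strand of the gene, with each CpG dinucleotide in capitals. Fat4, on the plus strand at chr3:38886690-38886939, Prickle1 at its upstream start, on the minus strand at chr15:93595903-93596152, and Celsr2, on the minus strand at chr3:108415580-108415829, read as follows.
Fat4: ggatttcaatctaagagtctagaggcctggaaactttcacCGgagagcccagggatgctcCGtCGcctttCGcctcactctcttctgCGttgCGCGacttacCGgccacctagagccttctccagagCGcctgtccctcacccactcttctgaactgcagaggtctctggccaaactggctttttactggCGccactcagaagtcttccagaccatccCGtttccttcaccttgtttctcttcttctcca
Prickle1: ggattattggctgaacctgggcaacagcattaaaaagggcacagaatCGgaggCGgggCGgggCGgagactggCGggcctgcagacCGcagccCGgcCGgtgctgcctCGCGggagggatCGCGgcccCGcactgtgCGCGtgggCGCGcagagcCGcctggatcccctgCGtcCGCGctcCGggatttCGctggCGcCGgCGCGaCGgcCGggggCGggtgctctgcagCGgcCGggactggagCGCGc
Celsr2: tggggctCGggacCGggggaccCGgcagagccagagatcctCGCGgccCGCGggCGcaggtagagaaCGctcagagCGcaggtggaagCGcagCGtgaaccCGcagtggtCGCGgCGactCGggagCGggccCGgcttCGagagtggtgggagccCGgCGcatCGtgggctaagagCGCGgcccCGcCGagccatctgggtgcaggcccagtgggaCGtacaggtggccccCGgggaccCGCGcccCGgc
The Fat4 window held 11 CpG dinucleotides, the upstream Prickle1 window 34 and the Celsr2 window 32, against a median of 6 over 32851 windows of that length. A second Prickle1 window, at an internal start, held 16 CpG dinucleotides at a GC content of 60.8%, and which start the counted reads came from is not known. The upstream Prickle1 start and Celsr2 thus both lie in CpG-dense sequence. Prickle1 was lower and Celsr2 higher in Brg1-cKO, and a link to CpG content was not tested. GC content was 54.8% at Fat4, 74.0% at the upstream Prickle1 start and 75.2% at Celsr2, with a median of 52.4% over all windows. Short motifs were searched on both strands of the 11 windows that the 7 genes have. The TEAD core GGAATG was present in 1 of them, a Fat1 window that lies inside the gene, against 12.6% of all windows. The MEF3 core TCAGGTT, bound by the family of Six2, was present in 0 of 11, against 3.49%. The LEF/TCF core CTTTGA was present in 1 of 11, a window at an internal Prickle2 start, against 13.8%, and the GC box GGGCGG in 7 of 11, against 32.7%. Several windows belong to the same gene. A match describes these letters only.

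The genes were sorted by whether both Brg1-cKO libraries lay below both controls, above both, or neither. Fat4, Dchs1, Dchs2, Prickle1 and Prickle2 lay below both controls in both Brg1-cKO libraries, Celsr2 lay above both, and Fat1, Vangl1, Vangl2 and Celsr1 overlapped the controls. The tally was thus 5 below, 1 above and 4 overlapping, where 34.5% of all tested genes lay below and 17.5% above; the choice of genes used this contrast, so nothing is read from the tally. Of the 10 genes 5 had a log2 fold change above 0 and 5 below. Their median of -0.52 falls in the gap between Fat1 (0.00) and Dchs1 (-1.03). The median was -0.06 over all tested genes, and nothing is read from that difference either. Since edgeR's quasi-likelihood test called 0 of 18172 genes at the adjusted threshold, its outcome for the 10 genes was fixed, and nothing is read from it.

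**Figure D1:**
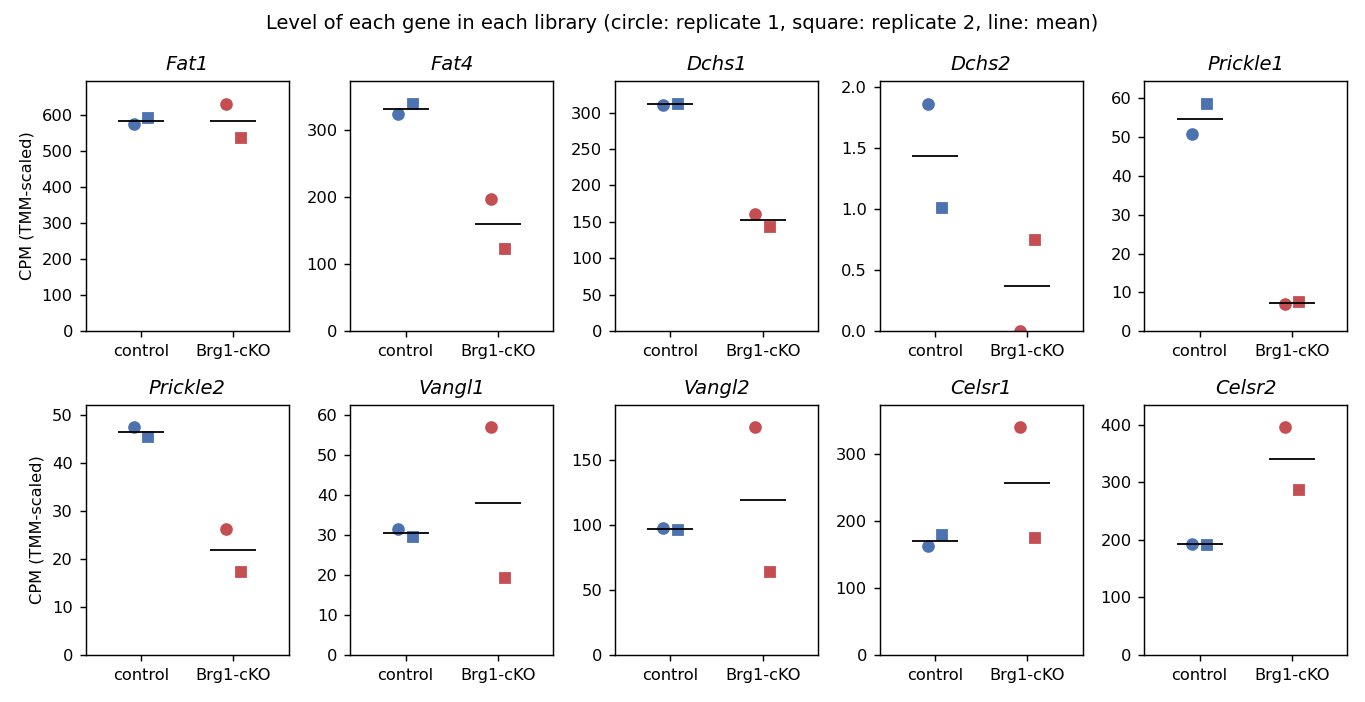
Each panel plots the CPM of 1 gene (linear axis from 0) in the 2 control and 2 Brg1-cKO libraries, with circles for replicate 1, squares for replicate 2 and a line at the mean. Prickle1 stands at 50.8 and 58.5 CPM in control and at 7.10 and 7.53 CPM in Brg1-cKO, while the Brg1-cKO libraries stand on opposite sides of the controls for Vangl1 and Vangl2.

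Fat1, a Fat cadherin of epithelia and podocytes that also binds actin regulators, was at 574 and 592 CPM in control and at 631 and 536 CPM in Brg1-cKO. The control values lay between the Brg1-cKO values. Its log2 fold change was 0.00 (SE 0.12), so the interval of 1 SE on either side stayed close to 0. Fat1 lies on chromosome 8 from 44935447 to 45052257.

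Fat4, which binds Dchs1 across cell contacts, was at 322 and 338 CPM in control and at 197 and 123 CPM in Brg1-cKO. Both Brg1-cKO libraries were low and did not overlap the controls, but they differed from each other by 0.68 on the log2 scale. The log2 fold change was -1.05 (SE 0.27), a level 2.07-fold lower. It was -0.75 without Brg1-cKO replicate 2 and -1.43 without Brg1-cKO replicate 1. Fat4 lies on chromosome 3 from 38886940 to 39011985.

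Dchs1, the binding partner of Fat4, was at 310 and 312 CPM in control and at 162 and 143 CPM in Brg1-cKO. The groups did not overlap, and the libraries within each group lay close together. The log2 fold change was -1.03 (SE 0.13), a level 2.05-fold lower, and it ran from -1.12 to -0.95 when each library was left out in turn. The fold changes of Fat4 and Dchs1 were thus nearly the same. The summed stromal markers were 2.04-fold lower in Brg1-cKO, but the endothelial sum was also 2.24-fold and the immune sum 2.35-fold lower. The ureteric bud sum was lower as well, and the nephron progenitor, early nephron and podocyte sums were higher. A link between any of these sums and Fat4 or Dchs1 was not tested. Dchs1 lies on chromosome 7 from 105752990 to 105787654.

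Dchs2, the lesser known Dachsous relative, was close to the limit of detection. It had 67 and 39 counts in the controls and 0 and 8 counts in the Brg1-cKO libraries, or 1.86, 1.01, 0.00 and 0.74 CPM. A count of 0 allows up to 3 counts, which is 0.209 CPM in Brg1-cKO replicate 1. Its log2 fold change of -1.97 (SE 1.90) carried an SE nearly as large as itself. It was -0.94 without Brg1-cKO replicate 1 and -8.42 without Brg1-cKO replicate 2, where the remaining Brg1-cKO library is at 0 counts and the fitted value is no measure of size. Dchs2 lies on chromosome 3 from 83127948 to 83357209, and it passed the filter on low counts through the controls.

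Prickle1, a LIM-domain protein of the cytoplasm that works with Vangl, showed the widest gap among the genes with more than trace counts. It had 1826 and 2268 counts in the controls and 102 and 81 counts in the Brg1-cKO libraries, that is 50.8 and 58.5 CPM against 7.10 and 7.53 CPM. The lowest control was far above the highest Brg1-cKO library. The log2 fold change was -2.90 (SE 0.34), a level 7.47-fold lower, and stayed between -3.00 and -2.80 when each library was left out in turn. Prickle1 lies on chromosome 15 from 93499114 to 93595891.

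Prickle2, its paralog, was at 47.3 and 45.3 CPM in control and at 26.3 and 17.2 CPM in Brg1-cKO. The groups did not overlap. The log2 fold change was -1.09 (SE 0.36), a level 2.13-fold lower, which is of the size seen for Fat4 and Dchs1 and smaller than that of Prickle1. Prickle2 lies on chromosome 6 from 92370908 to 92706155.

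Vangl2, the main vertebrate Van Gogh protein of planar polarity, was at 97.1 and 95.6 CPM in control and at 175 and 63.3 CPM in Brg1-cKO. Vangl1, its paralog, was at 31.5 and 29.6 CPM in control and at 56.9 and 19.3 CPM in Brg1-cKO. For both genes Brg1-cKO replicate 1 was above and replicate 2 below both controls. The log2 fold changes were 0.31 (SE 0.54) for Vangl2 and 0.32 (SE 0.61) for Vangl1. Without Brg1-cKO replicate 1 they turned to -0.61 and -0.66, and without replicate 2 they were 0.85 and 0.90, so no direction held. Vangl2 lies on chromosome 1 from 172000960 to 172028444, and Vangl1 on chromosome 3 from 102153583 to 102204693.

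Celsr2, a multi-pass cadherin of the Flamingo type, was at 194 and 191 CPM in control and at 395 and 287 CPM in Brg1-cKO. Both Brg1-cKO libraries were above both controls. The log2 fold change was 0.83 (SE 0.20), a level 1.77-fold higher, and ran from 0.58 to 1.04 when each library was left out in turn. Celsr1, a paralog of the same structure, was at 163 and 178 CPM in control and at 339 and 174 CPM in Brg1-cKO. Brg1-cKO replicate 1 stood above the controls and replicate 2 within their range. The fitted log2 difference was 0.59 (SE 0.36), and it came to 0.99 when Brg1-cKO replicate 2 was dropped and to 0.03 when replicate 1 was. Celsr2 lies on chromosome 3 from 108390851 to 108415552, and Celsr1 on chromosome 15 from 85898929 to 86033777.

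**Figure D2:**
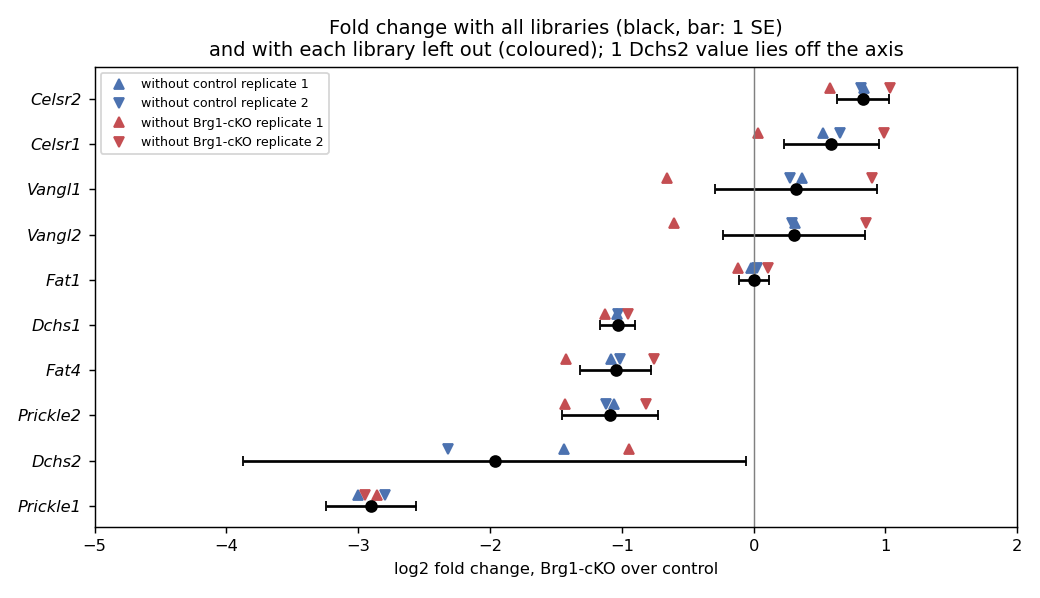
The horizontal axis gives the log2 fold change of Brg1-cKO over control for each gene, with black points and bars of 1 SE from all 4 libraries and coloured triangles for fits that leave out 1 library. Triangles of Prickle1, Dchs1, Fat4, Prickle2 and Celsr2 keep to 1 side of 0, those of Vangl1 and Vangl2 fall on both sides, and the Dchs2 value of -8.42 without Brg1-cKO replicate 2 lies off the axis.

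Ratios within a library do not depend on how libraries are scaled. They were formed after the levels were seen and use CPM per kb of exonic length. The ratio of Vangl1 to Vangl2 was 0.316 and 0.302 in control and 0.318 and 0.298 in Brg1-cKO. The 2 genes thus kept nearly 1 proportion in all 4 libraries, although the Brg1-cKO libraries differed by 1.56 (Vangl1) and 1.46 (Vangl2) on the log2 scale. The ratio of Dchs1 to Fat4 was 1.49 and 1.43 in control and 1.28 and 1.80 in Brg1-cKO, so the controls lay between the Brg1-cKO values. The ratio of Dchs1 to Fat1 separated the groups, at 0.766 and 0.747 in control and 0.363 and 0.377 in Brg1-cKO. The ratio of Fat4 to Fat1 did so as well, at 0.512 and 0.522 against 0.284 and 0.209. The ratio of Prickle2 to Prickle1 went from 0.469 and 0.390 in control to 1.87 and 1.15 in Brg1-cKO, so that Prickle1 was the higher paralog in control and the lower one in Brg1-cKO. The ratio of Celsr1 to Celsr2 was 0.880 and 0.976 in control and 0.897 and 0.636 in Brg1-cKO, which overlap.

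**Figure D3:**
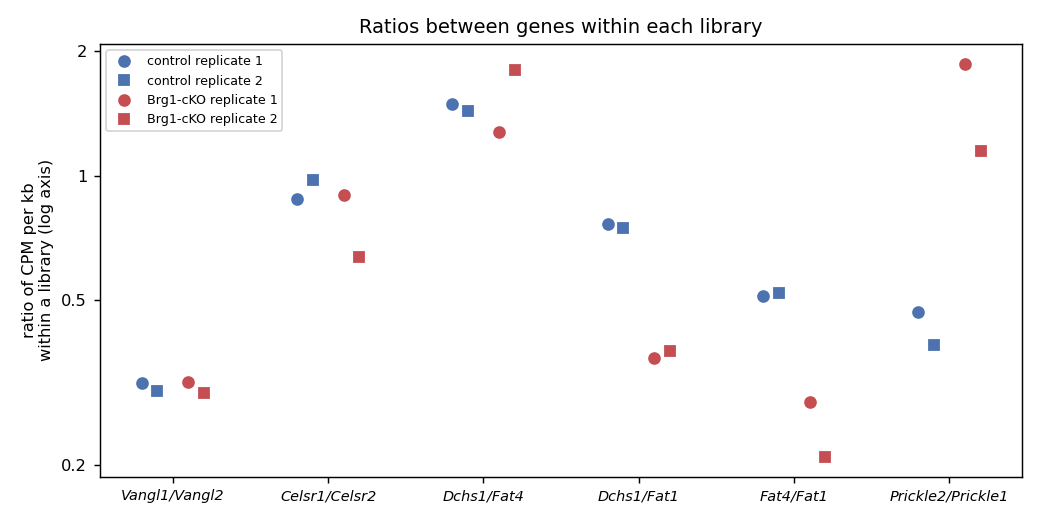
Points give the ratio of CPM per kb between 2 genes within each library on a log axis, with control in blue, Brg1-cKO in red, circles for replicate 1 and squares for replicate 2. The Vangl1 to Vangl2 ratio stays between 0.298 and 0.318, whereas the Dchs1 to Fat1 ratio is 0.747 or more in control and 0.377 or less in Brg1-cKO.

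Levels between genes were compared per kb of merged exons. In control, Fat1 was highest at 37.2 ± 0.789 CPM per kb (SD, n = 2), then Dchs1 at 28.2 ± 0.113, Fat4 at 19.3 ± 0.655, Celsr2 at 16.7 ± 0.160, Celsr1 at 15.5 ± 0.982 and Vangl2 at 13.8 ± 0.156 CPM per kb. Prickle1 followed at 12.6 ± 1.26, Prickle2 at 5.37 ± 0.164, Vangl1 at 4.27 ± 0.186 and Dchs2 at 0.133 ± 0.0562 CPM per kb. In control Vangl2 and Prickle1 were the only neighbours in this order that did not differ by more than their spread. The median over 14388 tested protein-coding genes was 5.62 CPM per kb, so 7 of the 10 genes stood above it. In Brg1-cKO, Fat1 was again first at 37.3 ± 4.27, then Celsr2 at 29.6 ± 6.67, Celsr1 at 23.3 ± 10.6, Vangl2 at 17.0 ± 11.3, Dchs1 at 13.8 ± 1.20 and Fat4 at 9.31 ± 3.03 CPM per kb. Vangl1 was at 5.33 ± 3.71, Prickle2 at 2.52 ± 0.745, Prickle1 at 1.68 ± 0.0711 and Dchs2 at 0.0345 ± 0.0488 CPM per kb. Most neighbours in the Brg1-cKO order overlapped. The exceptions were Dchs1 over Fat4, Prickle2 over Prickle1 and Prickle1 over Dchs2. Dchs1 and Fat4 thus stood above both Celsr genes in control and below them in the Brg1-cKO order of means.

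The loci carry few overlapping genes. Exons of Fat4 share 1490 bp, or 8.68% of their length, with the antisense genes C230034O21Rik and Gm43539. The shared part with an antisense gene was 3.11% for Fat1 (Gm2366), 5.86% for Dchs1 (Gm15645), 12.0% for Dchs2 (Gm10710) and 0.112% for Vangl1 (Gm16160). The other 5 genes share no exon sequence with a neighbour in this annotation. If strand was ignored in counting, reads in the shared parts could not be assigned to a gene.

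The other genes of these pathways were read from lists of 65 companions, of which 62 were tested. In edgeR's quasi-likelihood test 0 of 62 passed the adjusted threshold, against 0% of all genes. At an unadjusted p under 0.05 there were 4 higher and 6 lower companions, or 6.45% and 9.68%, against 5.44% and 12.9% of all tested genes. Both Brg1-cKO libraries lay above both controls for 13 (20.97%, background 17.5%) and below for 21 (33.9%, background 34.5%). These shares are near the background and are no result about the lists. Fzd6, Celsr3 and Cthrc1 are listed at 0 in all 4 libraries, and no level is read from that.

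Among 8 relatives and partners of Fat and Dachsous, 3 had a log2 fold change above 0 and 5 below, with a median of -0.09. Fat3, a further Fat cadherin, was at 53.8 and 52.1 CPM in control and 28.9 and 22.9 CPM in Brg1-cKO, and its log2 fold change was -1.03 (SE 0.30, adjusted p = 0.186 in edgeR). Fjx1, the mouse four-jointed kinase that modifies Fat and Dachsous, was at 19.4 and 20.5 CPM in control and 24.7 and 47.2 CPM in Brg1-cKO (log2 fold change 0.85, SE 0.47, edgeR adjusted p = 0.468). Fat3 thus had a fold change close to that of Fat4 and Dchs1, and Fjx1 stood on the other side of 0.

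Of 12 tested core planar polarity genes outside the family described, 7 had a log2 fold change above 0 and 5 below, with a median of 0.04. Ror1, a receptor tyrosine kinase for Wnt5a, was at 39.7 and 38.8 CPM in control and 14.9 and 12.1 CPM in Brg1-cKO, and its log2 fold change was -1.54 (SE 0.36, adjusted p = 0.166 in edgeR). Prickle3, in contrast to Prickle1 and Prickle2, was at 16.4 and 15.4 CPM in control and 26.6 and 26.4 CPM in Brg1-cKO (log2 fold change 0.74, SE 0.40, edgeR adjusted p = 0.459). Of 13 tested effectors, which link polarity to cilia and actin, 9 were above 0 and 4 below, with a median of 0.31. Wdpcp, a ciliogenesis effector, had 0.97 (SE 1.58), and Smurf1, a ubiquitin ligase that acts on Prickle1, had -1.02 (SE 0.87). Neither of these passed the adjusted threshold, and both differed widely between the Brg1-cKO libraries.

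All 4 Wnt ligands linked to planar polarity had a log2 fold change below 0, with a median of -1.54, and none passed the adjusted threshold. Wnt9b, the ureteric bud signal known for tubule polarity, was at 6.68 and 9.40 CPM in control, while neither Brg1-cKO library held a read of it, which makes it at least 67.3-fold lower when the group total is set to the floor of 3 counts. Wnt11 was at 22.9 and 18.5 CPM in control and at 0.00 and 11.1 CPM in Brg1-cKO (log2 fold change -1.91, SE 2.31). Wnt5a had a log2 fold change of -1.17 (SE 0.59) and Wnt5b one of -0.50 (SE 1.04). The median of the list lies between Wnt5a and Wnt11, so it rests partly on a gene with a wide SE. Wnt9b and Wnt11 are also ureteric bud markers, a list whose sum is given above.

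In the Hippo pathway, 6 of 12 kinases and scaffolds were above 0 and 6 below, with a median of -0.07. Lats1, the kinase that acts on Yap1, had a log2 fold change of 0.51 (SE 0.18, adjusted p = 0.256 in edgeR), and Mob1b, its cofactor, had -0.86 (SE 0.32, edgeR adjusted p = 0.282). Of 7 transcription factors of the pathway 2 were above 0 and 5 below (median -0.12). Yap1 was at 249 and 257 CPM in control and 270 and 196 CPM in Brg1-cKO, which overlap. Tead1, its DNA-binding partner, had 0.40 (SE 0.11, edgeR adjusted p = 0.185), and Tead3 had -0.42 (SE 0.29). Of 6 Yap targets 3 were above 0 and 3 below (median -0.07), from -0.44 (SE 0.16) for the receptor kinase Axl to 0.65 (SE 0.26) for Crim1 among those at 10 CPM or more in the higher group. The lowest fold changes of both lists, of Tead4 and Ankrd1, rest on 2 and 0 counts over the Brg1-cKO libraries.

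**Figure D4:**
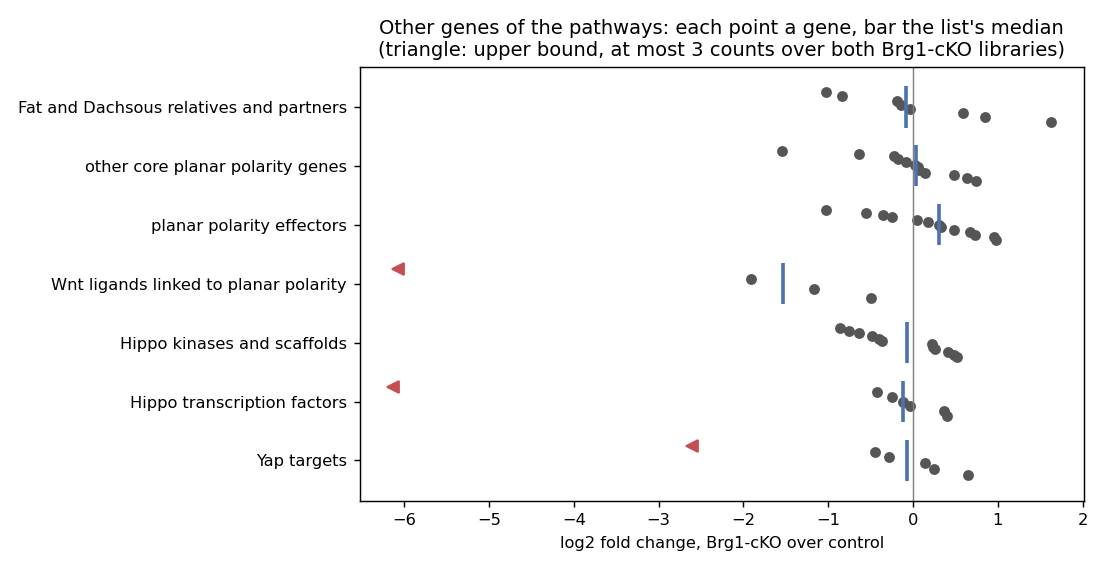
Each point is the log2 fold change of Brg1-cKO over control for 1 of 62 companion genes, by list, with a blue bar at the list's median and triangles for upper bounds of genes with at most 3 counts over both Brg1-cKO libraries. Medians of 6 lists lie between -0.12 and 0.31, and that of the 4 Wnt ligands at -1.54, between Wnt5a and Wnt11.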

How the data were processed

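The files hold read counts per gene for 4 libraries, deposited by the authors as whole numbers followed by totals of unassigned reads. Per the labels' protocols, mRNA from 3000 sorted cells per sample was made into strand-specific libraries and sequenced as single-end 75 bp reads. Per the submitters' processing notes, the build was mm10 and the tools TopHat and DESeq2 (no versions). Neither the counter, its strand setting nor the annotation is given in the sources used here. Unassigned reads, 32.1% ± 0.406 of all reads in control and 68.8% ± 4.67 in Brg1-cKO (SD, n = 2), entered neither library sizes nor tests.

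Identifiers were matched to GENCODE release M21 (mm10), which gave 52403 of 52636 a symbol. Groups came from sample titles. edgeR 4.0.16 in R 4.3.3 was fitted to all genes with group as its only term, TMM scaling, a minimum count of 10, robust dispersions, the quasi-likelihood F test and Benjamini-Hochberg adjustment at 0.05. The functions were tested on simulated data first, and nothing is read from that about the number of genes called in these libraries. CPM use TMM-scaled library sizes. SE is the log2 estimate over the square root of F. Levels per kb use merged M21 exons, which may not be the features counted. A floor of 3 counts covers counting error only, since reads carry no molecular identifiers.

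Members and lists were chosen with earlier results of these data known. All 10 members were named, and of each companion list the highest and lowest fold change among genes at 10 CPM or more in the higher group. Yap1, Wnt5a, Wnt9b, Tead4, Ankrd1 and the genes listed at 0 were added once values were known. Alternatives were DESeq2 1.42.0, limma-voom (limma 3.58.1), other scalings and filters, a replicate block and each library left out in turn.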

Additional observations from a re-analysis of the deposited data

Results flagged for a closer look

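Uniquely aligned reads outside every counted feature came to 53.4% ± 5.47 of uniquely aligned reads in Brg1-cKO and 15.9% ± 0.775 in control (SD, n = 2). No comparison above uses these reads, and the level in Brg1-cKO was above that in both controls. This difference in the libraries cannot be told apart from genotype.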

How the results depend on the processing

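The number of genes past an adjusted p of 0.05 was 0 with edgeR's quasi-likelihood test and stayed 0 with RLE or total count scaling, with library sizes that left out mitochondrial, ribosomal protein and hemoglobin genes, without a filter on low counts and with a filter of 10 CPM in 2 libraries. It was 907 with DESeq2, 327 with limma-voom and 156 with the replicate block. It ran from 13 to 13134 when each library was left out in turn, and the lone library was then assumed to vary like the other group. Why the other counts differ was not tested. The labels do not say what the replicate numbers share, and deviations of same-numbered libraries from their group means correlated at -0.02 across 11771 genes, so the numbers are not treated as pairs. Most alternatives refit the same 4 libraries, so a sign kept under them is no independent support. Of 119 fold changes of the 10 genes under alternatives, 112 kept their sign. The 7 others were Fat1, at -0.048 with total count scaling, -0.031 without a filter, -0.0025 with the replicate block, -0.02 without control replicate 1 and -0.12 without Brg1-cKO replicate 1, and, without that last library, Vangl1 at -0.66 and Vangl2 at -0.61. Leaving out each library gave highest values of 0.11 for Fat1, 0.90 for Vangl1 and 0.85 for Vangl2. With the sign kept, Fat4, Dchs2, Vangl2, Celsr1 and Celsr2 still moved by 1 SE or more in a fit without 1 Brg1-cKO library. Dchs2 could not be fitted with the filter of 10 CPM. Scaling moved the median log2 fold change of all genes by 0.05 with RLE and by -0.05 with total counts. For Dchs2, the scarcest of the 10, a floor of 3 counts is 0.0774 to 0.279 CPM.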

Other observations

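For the genes with the highest and the lowest fold change among those at 10 CPM or more, the 3 most alike genes were taken by the Euclidean distance of log2 CPM over the 4 libraries, each gene centred on its own mean, among 9630 protein-coding genes. For Celsr2 these were Mrpl13, a mitochondrial ribosomal protein (distance 0.035), Tcn2, a cobalamin carrier (0.036), and Slc4a3, an anion exchanger (0.037). Slc4a3 was at 84.5 and 83.1 CPM in control and 175 and 129 CPM in Brg1-cKO. For Prickle1 they were Col6a1, a type VI collagen chain (0.157), Itpr2, a calcium channel of the endoplasmic reticulum (0.371), and Gria4, a glutamate receptor subunit (0.416). Col6a1 was at 76.3 and 86.4 CPM in control and 11.7 and 10.7 CPM in Brg1-cKO. With 4 libraries, such likeness is only a description.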
